A study of Mus musculus with 7 samples.

Results

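Complement is an innate defence system of plasma proteins and cell surface receptors. The classical pathway starts when C1q binds antibody or dying cells, the alternative pathway is carried by factor B and properdin, and both meet at C3, after which late components such as C6 assemble a membrane pore. In liver, hepatocytes make most circulating complement, while macrophages make C1q and properdin and carry receptors for the peptides released from C3 and C5. The 9 genes described here were chosen by symbol from the 10550 genes of the count table, as components (C1qa, C1qb, C1qc, C3, C6, Cfp, Cfb) and receptors (C3ar1, C5ar1), and all 9 are listed in it.

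Kupffer cells, the macrophages that reside in liver sinusoids, were sorted by flow cytometry. Donor mice were male, 8 weeks old, untreated and on a C57BL/6 background. Control mice were labelled Commd10fl/fl (both Commd10 alleles flanked by loxP sites, 4 libraries). Commd10-deficient mice carried the same floxed alleles and, in addition, Cre expressed from the locus of Clec4f, a Kupffer cell lectin gene (labelled Clec4FDCommd10, 3 libraries). Controls were littermates without Cre. By their titles the controls form control set 1, which holds replicates 1 and 2, and control set 2, which holds replicates 3 and 4. A 3′ method with molecular identifiers (UMIs) was used on about 10000 cells per sample, so that each count stands for 1 tagged RNA molecule and is not scaled by transcript length. The labels do not tie libraries to separate animals, so p-values measure the spread between libraries, which may be technical.

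Control set 1 was sequenced to 3207144 and 4270240 counts, control set 2 to 230942 and 267553, and the Commd10-deficient libraries to between 105462 and 124016. Depth therefore cannot be told apart from genotype. Control set 2 was nearer in depth to the Commd10-deficient libraries, but still deeper than each of them. The genotypes also differ in the Clec4f allele that carries Cre. Commd10 itself held 167, 130, 7 and 1 counts in controls 1 to 4, against 0, 4 and 2 after its targeting. The labels do not say which exons were removed, so these tags do not check the genotype. Kupffer cell markers summed to between 31544 and 35161 CPM (counts scaled to the effective library size) in controls and between 32711 and 36112 CPM in Commd10-deficient libraries, with Clec4f at 12267 ± 1582 CPM (SD, n = 4) and 11576 ± 1463 CPM (SD, n = 3). Of 9 tested genes on that list 1 was called in edgeR, against 6.04% of all tested genes. This was the scavenger receptor gene Marco, which fell from 2036 ± 769 CPM to 593 ± 141 CPM (log2 -1.78, adjusted p = 0.0164). Cd163 (1.09, adjusted p = 0.0626), Adgre1 (0.77, adjusted p = 0.0788) and Vsig4 (0.70, adjusted p = 0.111) were higher without passing. They and Marco did not overlap between genotypes, where 25% of all tested genes did not overlap. Dendritic cell markers (3 of 7 in the table, 0 tested) summed to between 4.67 and 19.5 CPM in controls. In Commd10-deficient libraries they summed to between 37.4 and 42.9 CPM, with no overlap. Those sums rested on few counts: 3, 4 and 4 of Clec9a, 2, 0 and 1 of Ccr7, and 0 of Zbtb46 in each. At that depth 3 counts are 24.3 to 28.0 CPM. The part of dendritic cells in the results was not tested. Neutrophil markers summed to between 40.9 and 98.1 CPM in controls and to 85.7, 74.7 and 202 CPM in Commd10-deficient libraries. For monocyte markers the sums were 261 to 960 CPM and 299 to 566 CPM. Hepatocyte markers summed to between 5522 and 6101 CPM in control set 1, 9739 and 10500 CPM in control set 2, and 7608 and 8359 CPM in the Commd10-deficient libraries. In such sorted bulk samples, a change in the share of cells and a change in RNA per cell cannot be told apart.

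The comparison asked whether complement genes differed between Kupffer cells with and without targeted Commd10. The most abundant of them, the C1q chains, made up about the same share of all counts in both genotypes, but the order of the chains differed: C1qb led in every control library and C1qc in every Commd10-deficient one. C3 was lowest in the Commd10-deficient libraries. C1qc and C3 differed most, and C6 had nearly equal means. Of the 9 genes, 7 passed the filter on low counts and 0 of those 7 were called (edgeR quasi-likelihood test, adjusted p under 0.05). Of all 3412 tested genes 6.04% were called, 3.46% as higher and 2.58% as lower in Commd10-deficient libraries. At an unadjusted p under 0.05 there were 3 (C1qc, C3 and Cfb), against 24.2% of all tested genes. DESeq2 called 2 (C1qc and C3, with 5.2% of genes called) and limma-voom called 1 (C1qc, with 5.86%). Tested with control set 1 alone, 2 were called (C1qc and Cfb, with 25.1% of genes), and with control set 2 alone 3 (C1qc, C3 and Cfp, with 31.7%). CPM of the genotypes did not overlap for 3 genes (C1qb, C1qc and C3), as for 25% of all tested genes. The median log2 fold change was -0.02 over the 7 and -0.05 over all tested genes. Both receptors failed the filter.

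**Figure D1:**
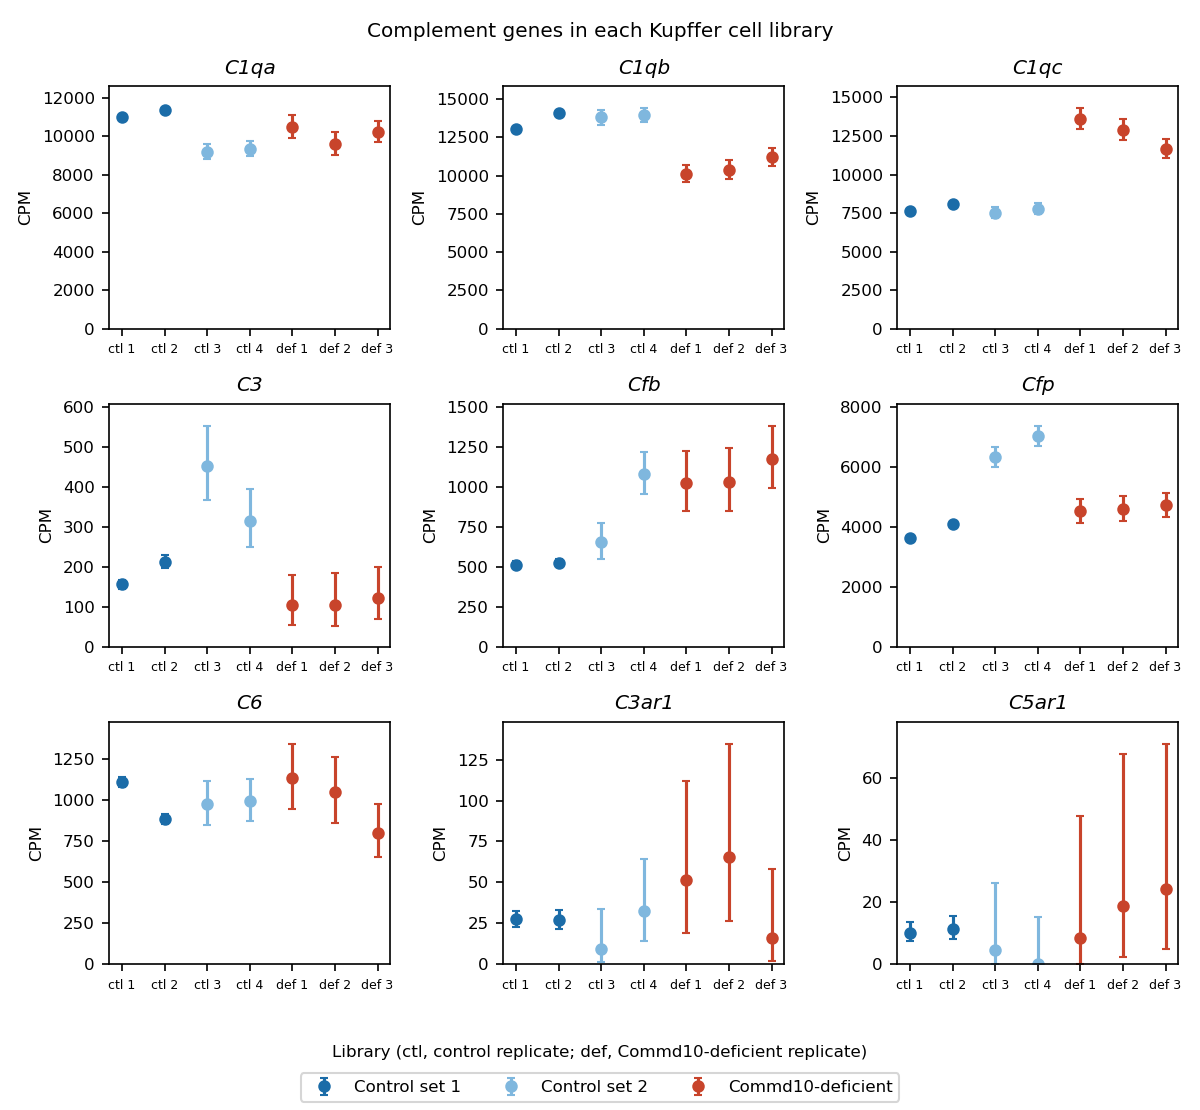
CPM of each of the 9 genes in the 7 libraries, with exact 95% Poisson intervals that cover counting error only; each panel has its own axis from 0, and ctl and def stand for control and Commd10-deficient replicates. C1qc lies between 7518 and 8059 CPM in controls and between 11682 and 13623 CPM in Commd10-deficient libraries, while Cfp separates the control sets from each other.

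C1q is assembled from equal numbers of A, B and C chains, encoded by C1qa, C1qb and C1qc. The genes sit next to each other on the minus strand of chromosome 4 (mm10): C1qa at chr4:136895917-136898803, C1qc at chr4:136889804-136893065 and C1qb at chr4:136880129-136886187. The whole cluster spans 18675 bases with 0 other annotated genes inside it. Gaps of 2851 bases (C1qa to C1qc) and 3616 bases (C1qc to C1qb) separate the genes, and no exon of another gene overlaps theirs. Each has 3 exons, and the longest transcripts are close in length (1040, 1088 and 1203 bases for C1qa, C1qb and C1qc) and in GC content (59.5%, 57.4% and 57.5%).

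The upstream sequences of C1qb and C1qc are shown because these are the chains whose order differed between genotypes; both are RefSeq promoter windows on GRCm38.p6, minus strand, 5′ to 3′, ending before the first annotated transcript start. They run over chr4:136886201-136886450 (250 bases) and chr4:136893066-136893164 (99 bases). Capitals mark the letters GAGGAA (core motif of PU.1, a myeloid transcription factor), searched on both strands.
C1qb: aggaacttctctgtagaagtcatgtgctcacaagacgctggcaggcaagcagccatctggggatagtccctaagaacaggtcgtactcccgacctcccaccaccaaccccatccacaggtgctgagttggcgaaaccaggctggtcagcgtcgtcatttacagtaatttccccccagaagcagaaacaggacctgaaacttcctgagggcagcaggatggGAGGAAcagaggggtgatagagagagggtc
C1qc: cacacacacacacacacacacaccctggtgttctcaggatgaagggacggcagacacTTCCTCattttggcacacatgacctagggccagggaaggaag
The C1qb and C1qc windows hold 1 match each, in C1qc on the opposite strand (TTCCTC). Of 32851 promoter windows of 250 bases, 23.3% hold GAGGAA on either strand, so such matches are common at that length. That share does not apply to the C1qc window, which is shorter at 99 bases. RefSeq windows were matched for 7 of the 9 genes; C1qa and Cfb were not among them.

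C1qb, the B chain, was at 13029, 14057, 13790 and 13927 CPM in control replicates 1 to 4. In Commd10-deficient replicates 1 to 3 it was at 10117, 10360 and 11214 CPM. Every Commd10-deficient library was thus below every control, and both control sets lay at the same level. On the log2 scale the difference was -0.38 (SE 0.21, 95% interval -0.83 to 0.08, edgeR adjusted p = 0.297). It was -0.36 against control set 1 (adjusted p = 0.137) and -0.39 against control set 2 (adjusted p = 0.0979) in the model with 3 levels. By CPM, C1qb ranked between 2 and 4 among all genes in controls and at 8 or 9 in Commd10-deficient libraries.

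C1qc, the C chain, was at 7610, 8059, 7518 and 7792 CPM in controls 1 to 4 and at 13623, 12910 and 11682 CPM in the Commd10-deficient libraries. The groups did not overlap, and control sets of very different depth lay at one level. Its rank ran from 7 to 16 in controls and from 3 to 4 in Commd10-deficient libraries. The log2 fold change was 0.72 (SE 0.21, 95% interval 0.27 to 1.17, a fold of 1.64), and the edgeR adjusted p of 0.0562 missed the threshold. Over the alternatives the adjusted p ran from 0.000334 to 0.264, under the threshold in 7 of 15. In a model with the control sets as separate levels, C1qc was 0.70 higher than control set 1 (SE 0.17, adjusted p = 0.00828) and 0.73 higher than control set 2 (SE 0.17, adjusted p = 0.00849), and called against each. These contrasts share the Commd10-deficient libraries, and called 19.3% and 19.1% of all tested genes. Between the control sets C1qc differed by -0.03 (SE 0.18).

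C1qa, the A chain, was at 10984, 11343, 9198 and 9350 CPM in controls and at 10477, 9603 and 10227 CPM in Commd10-deficient libraries. These fell between the control sets, with a log2 fold change of -0.02 (SE 0.22, 95% interval -0.48 to 0.45). Its sign turned against control set 2 alone (0.16), and for C1qa and C1qb when GC content and transcript length entered as an offset (0.57 and 0.15). In that fit C1qc was at 1.23 (adjusted p = 0.00792), so that all 3 chains shifted upward together and C1qc remained above C1qb by 1.08 on the log2 scale.

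Counts of the chains were also compared within each library, where scaling between libraries has no part. C1qb made up 41.2%, 42.0%, 45.2% and 44.8% of the C1q counts in controls 1 to 4, but 29.6%, 31.5% and 33.9% in Commd10-deficient replicates 1 to 3. The share of C1qc was 24.1%, 24.1%, 24.6% and 25.1% in controls, where it was the least abundant chain each time. In the Commd10-deficient libraries it was 39.8%, 39.3% and 35.3%, the largest share in each. The Wilson 95% interval of C1qc in the third Commd10-deficient library (33.8% to 36.7%) overlapped that of C1qb there (32.4% to 35.3%), and in the other 2 the intervals of these chains did not overlap. C1qa stayed between 29.2% and 34.7% throughout.

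**Figure D2:**
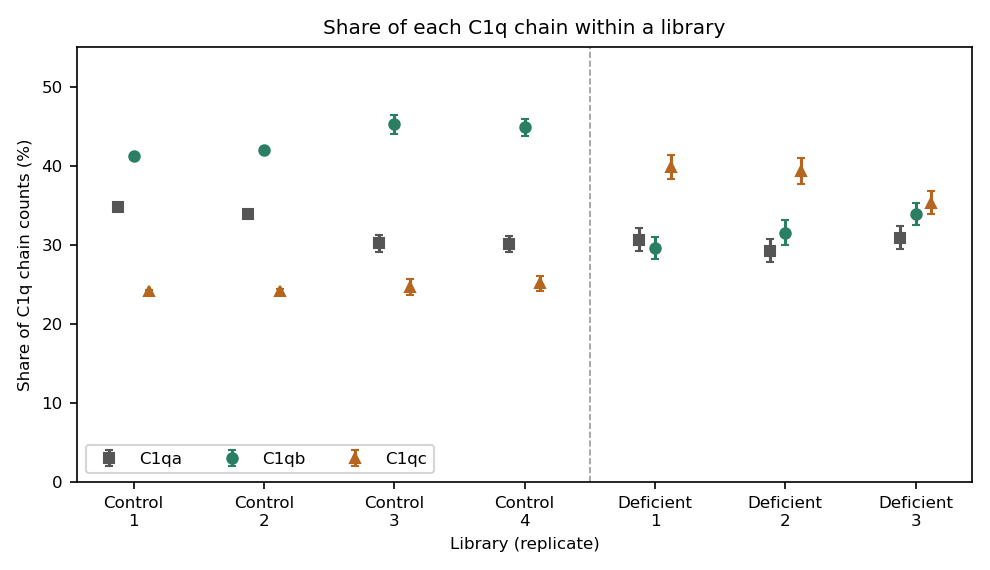
Share of C1qa, C1qb and C1qc in the summed C1q counts of each library, in percent, with Wilson 95% intervals that cover counting error only; the dashed line parts control from Commd10-deficient libraries. C1qb is the top and C1qc the bottom chain in all 4 controls, and C1qc is the top chain in all 3 Commd10-deficient libraries.

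For each C1qb count there were 0.584, 0.573, 0.545 and 0.559 C1qc counts in controls and 1.35, 1.25 and 1.04 in Commd10-deficient libraries, a 2.13-fold higher ratio (1.09 on the log2 scale, with SDs of 0.04 in controls and 0.19 in Commd10-deficient libraries). The ratio of C1qc to C1qa was 1.65-fold higher (0.73 on the log2 scale) and that of C1qa to C1qb 1.29-fold higher (0.36). None of the 3 ratios overlapped between genotypes, where 25% of single tested genes did not overlap. The share among ratios of other gene pairs was not computed. Each ratio had p = 0.0571 in a two-sided exact permutation test, also after adjustment over the 3. This is the smallest p that 3 against 4 libraries allow, and any ratio without overlap reaches it. The ratios share chains, so they are not 3 independent results. The C1qc to C1qb difference was 1.06 against control set 1 alone and 1.12 against control set 2 alone. Both control sets were deeper than every Commd10-deficient library, and the part of depth in this difference was not tested. Together the chains made up 3.17% ± 0.40 (SD, n = 4) of all counts in controls and 3.36% ± 0.06 (SD, n = 3) in Commd10-deficient libraries. Log2 fold changes of the 144 tested genes whose mean reached 1000 CPM had quartiles of -0.66 and 0.33. Of these genes 19 lay above C1qc and 56 below C1qb, and 18 were called.

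The genes whose log2 CPM followed each chain most closely over the 7 libraries, out of 1199 with at least 10 counts everywhere, differed from chain to chain. For C1qc they were Arhgap25 (r = 0.994), a regulator of Rac GTPase, the stress response transcription factor Xbp1 (0.989) and Dse (0.988), an enzyme of dermatan sulfate synthesis. For C1qb they were the ferritin heavy chain gene Fth1 (0.994), the ribosomal protein gene Rps12 (0.992) and Arpc3 (0.988), of the actin-nucleating Arp2/3 complex. For C1qa they included Anxa3 (0.974), an annexin gene, and Hsd17b4 (0.964), an enzyme of peroxisomal fatty acid oxidation. These are Pearson values over libraries that share genotype and depth differences, and describe likeness only.

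C3, on chromosome 17 (chr17:57203970-57228136, minus strand, mm10), encodes the component on which all complement pathways converge. Its counts were 711, 740, 97 and 77 in controls 1 to 4, and 12, 11 and 15 in the Commd10-deficient libraries. In CPM these were 156, 212, 453 and 315 against 103, 103 and 121. Every Commd10-deficient library was below every control, but the exact counting interval of each took in the lowest control. These intervals were 53.2 to 180, 51.3 to 184 and 67.9 to 200 CPM in Commd10-deficient replicates 1 to 3. The control sets were themselves apart. The log2 fold change was -1.34 (SE 0.41, 95% interval -2.22 to -0.47, edgeR adjusted p = 0.0599), a level 2.54-fold lower. With control sets as separate levels, C3 was called as lower than control set 2 (-1.81, SE 0.32, adjusted p = 0.00145) and not than control set 1 (-0.75, SE 0.31, adjusted p = 0.0992). Control set 2 was above control set 1 by 1.06 (adjusted p = 0.0162), in a contrast that called 18.7% of all genes. Hepatocytes are the main source of C3 in plasma. Of 14 tested hepatocyte markers 1 was called higher and 0 lower, against 3.46% and 2.58% of all tested genes. Their summed level in the Commd10-deficient libraries lay above that of control set 1 and below that of control set 2, the set against which C3 was called, and control set 2 was above control set 1 for C3 as for the sum. Among single hepatocyte markers, Apoa2 was at -0.96, Ttr at -0.80 and Ahsg at -0.76 on the log2 scale, and none of these 3 passed the test. Others went the other way, such as Serpina3k at 1.08, the 1 called (edgeR adjusted p = 0.0446), and Mup3 at 0.89. The median over the 14 tested was 0.11. The part of hepatocyte RNA in the C3 counts was not tested.

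The C3 window upstream of the transcript start is shown for its match to the C/EBP family motif, since C/EBP factors are known regulators of C3 in hepatocytes and macrophages. It covers chr17:57228137-57228386 (RefSeq, GRCm38.p6, minus strand, 5′ to 3′), and capitals mark TTGCNNAA.
C3: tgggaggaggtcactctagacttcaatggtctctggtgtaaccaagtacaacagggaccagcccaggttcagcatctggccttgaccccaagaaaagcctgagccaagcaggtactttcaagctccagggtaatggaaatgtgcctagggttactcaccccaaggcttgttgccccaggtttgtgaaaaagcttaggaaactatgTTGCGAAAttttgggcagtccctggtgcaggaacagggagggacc
On either strand, TTGCNNAA occurs in 9.56% of the 32851 windows. The C1qb and C1qc windows hold 0 matches to it, and the C3 window holds 0 matches to GAGGAA.

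Cfb and Cfp belong to the alternative pathway. Cfb encodes factor B, the protease part of its C3 convertase, and lies at chr17:34856374-34862518 on the minus strand (mm10). It was at 512, 525, 653 and 1080 CPM in controls, and at 1020, 1028 and 1172 CPM in Commd10-deficient libraries. Control replicate 4 lay inside the Commd10-deficient range and apart from the other controls. The log2 fold change was 0.64 (SE 0.30, 95% interval 0.0014 to 1.28, edgeR adjusted p = 0.206). Without control replicate 4 it was 0.92 and called (adjusted p = 0.0421). Against control set 1 Cfb was 1.05 higher (adjusted p = 0.00517) and against control set 2 0.31 higher (adjusted p = 0.382), and control set 2 itself was 0.74 above control set 1 (adjusted p = 0.0485). In GENCODE M21, exons of the annotated gene Gm20547 overlap Cfb on the same strand, and Gm20547 is not among the genes counted. How reads in the overlap were assigned cannot be told from the counts.

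Cfp encodes properdin, which stabilises that convertase and is made by myeloid cells (chrX:20925454-20931555, minus strand, mm10). Its level was 3606 and 4072 CPM in control set 1, 6310 and 7023 CPM in control set 2, and 4510, 4587 and 4713 CPM in the Commd10-deficient libraries. The Commd10-deficient values lay between the control sets, as did the summed hepatocyte markers, whose part in this result was not tested. The direction therefore rested on the reference: relative to all controls the log2 value was -0.19 (SE 0.27, adjusted p = 0.714), and it was 0.26 (adjusted p = 0.333) against control set 1 and -0.53 (SE 0.18, adjusted p = 0.0428) against control set 2. Between the control sets it was 0.80 (SE 0.19, adjusted p = 0.0103), a larger difference than either.

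C6, a late component that takes part in the membrane pore, was the only terminal pathway gene with enough counts to test (chr15:4727175-4814967, plus strand, mm10). Values were 1108, 885, 975 and 994 CPM in controls and 1132, 1046 and 800 CPM in Commd10-deficient libraries, and the groups overlapped fully. The log2 fold change was 0.00 (SE 0.25, 95% interval -0.53 to 0.54, edgeR adjusted p = 0.996). With control sets as separate levels, the difference from control set 1 was -0.0069 and that from control set 2 was 0.010.

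**Figure D3:**
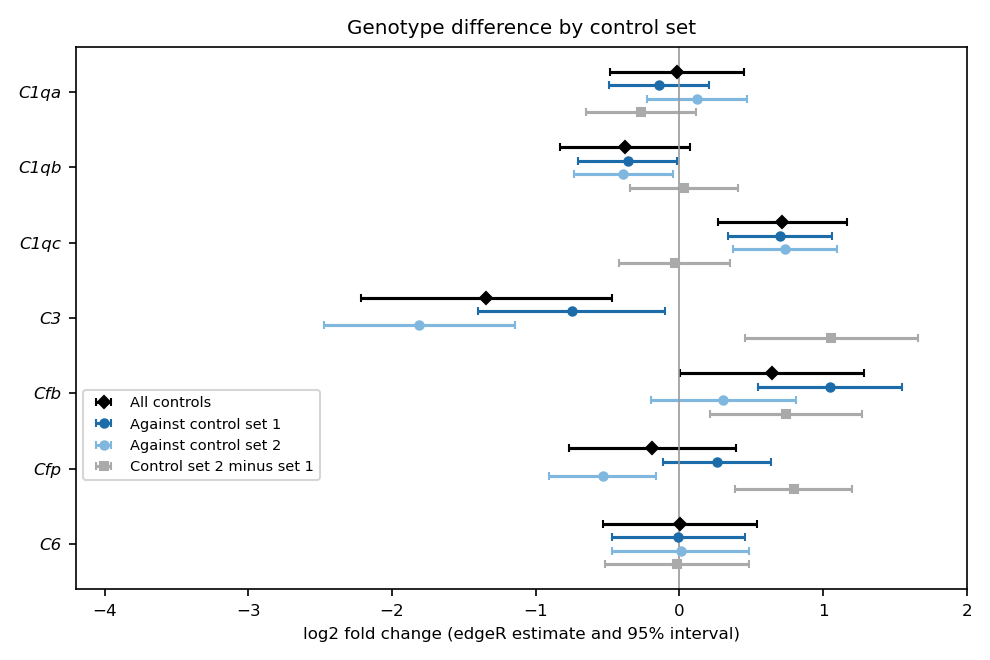
Log2 fold changes of the 7 tested genes with 95% intervals from edgeR: Commd10-deficient against all controls, against control set 1, against control set 2, and control set 2 minus control set 1. C1qc and C1qb keep their values against either control set (0.70 and 0.73 for C1qc), whereas C3, Cfb and Cfp also differ between the control sets.

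The receptor genes held few counts outside control set 1. C3ar1 encodes the receptor for C3a (chr6:122847138-122856161) and held 126, 94, 2 and 8 counts in controls and 6, 7 and 2 in Commd10-deficient libraries. As pooled counts per total, the Commd10-deficient libraries were at 1.47 times control set 1 (0.81 to 2.48) and 2.16 times control set 2 (0.91 to 5.38), with exact 95% bounds that cover counting error alone. C5ar1 encodes the receptor for C5a (chr7:16246743-16259540) and held 46, 40, 1 and 0 counts in controls and 1, 2 and 3 in Commd10-deficient libraries. The 0 in control replicate 4 has an exact 95% upper bound of 15.1 CPM, and 3 counts there are 12.3 CPM. Both values are above the level of control set 1 (10.1 and 11.5 CPM). The pooled ratio was 1.51 (0.54 to 3.42) against control set 1, so neither receptor differed from that set beyond counting error. Against control set 2, which held 1 count in all, the C5ar1 ratio was 8.65 (1.05 to 398). Fitted without a filter on low counts, edgeR gave adjusted p = 0.691 for C3ar1 and 0.723 for C5ar1.

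Other genes of the pathway were taken from a list of 53, of which 39 were in the table and 15 passed the filter. In edgeR 0 of the 15 were called, against 6.04% of all tested genes. An unadjusted p under 0.05 was found for 3 of them, including Vsig4 and Scarf1, against 24.2% of all tested genes. DESeq2 tested 25 of the listed genes and called 1, which had failed the filter. Of the 15, limma-voom called 1. The median log2 fold change of the 15 was 0.04. Of the 15, 5 did not overlap between genotypes, against 25% of all tested genes.

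Among receptors and C1q-binding proteins, 0 of 6 tested genes passed in edgeR. Vsig4, a Kupffer cell receptor for C3 fragments that was also used to define the sorted cells, was at 1797, 2149, 1218 and 1771 CPM in controls and 2949, 3176 and 2353 CPM in Commd10-deficient libraries (0.70, SE 0.26, adjusted p = 0.111). Against control set 2 it was 0.92 higher (adjusted p = 0.0111) and against control set 1 0.52 higher (adjusted p = 0.108). Itgb2, the shared beta chain of complement receptors 3 and 4, was at 0.48 (SE 0.27, adjusted p = 0.289), with 0.77 against control set 2 (adjusted p = 0.0341) and 0.26 against control set 1 (adjusted p = 0.458). Scarf1, a scavenger receptor that binds C1q on dying cells, was at -1.20 (SE 0.46, adjusted p = 0.128) and held 13 counts over the Commd10-deficient libraries. It was called against control set 2 (-1.45, adjusted p = 0.0476) and not against control set 1 (-0.99, adjusted p = 0.141). C1qbp, at 0.36 (SE 0.51), joined unlike values, -0.07 against control set 1 and 1.37 against control set 2 (adjusted p = 0.0754), and the control sets differed by -1.43 (adjusted p = 0.0428). The endocytic receptor gene Lrp1 was at -0.19 (SE 0.26), and between -0.45 and -0.05 with 1 library left out.

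Regulators gave 0 calls of 5 tested. The terminal pathway inhibitors Clu and Vtn, encoding clusterin and vitronectin, had log2 fold changes of -0.73 (SE 0.39) and -0.82 (SE 0.40). Positive values were found for Cr1l, which encodes the membrane regulator Crry (0.87, SE 0.49), the pore inhibitor gene Cd59a (0.86, SE 0.66) and Serping1, encoding C1 inhibitor (0.59, SE 0.49). Against control set 2, Cd59a was at 0.11 and Serping1 at -0.01, where control set 1 gave 1.52 and 1.13. With 1 library left out Serping1 ran from 0.23 to 0.86, and Cr1l was at -0.079 without Commd10-deficient replicate 1. Of the classical and lectin pathway 3 genes were tested and 0 called. These include Fcna, encoding ficolin-A, a lectin that binds microbial sugars, at 4709 and 3845 CPM (-0.29, SE 0.24). The C1q partner proteases C1ra and C1s1 were too low to test, with at most 115 and 40 counts in any library. In controls they averaged 43.7 and 8.05 CPM, where each C1q chain was at 7518 CPM or more.

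**Figure D4:**
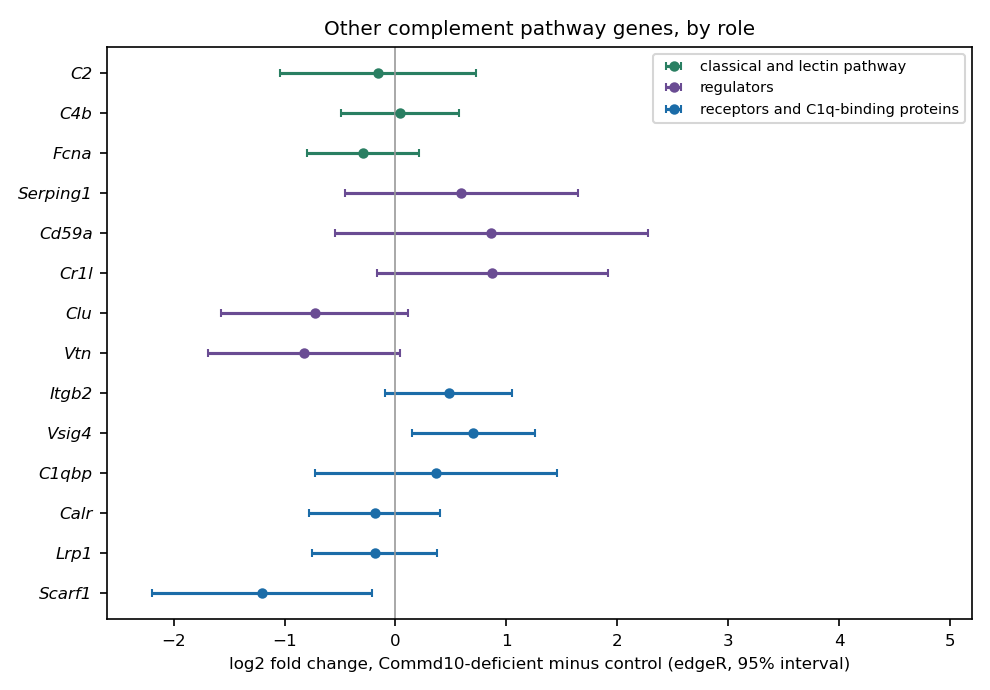
Log2 fold changes (Commd10-deficient minus control, edgeR, with 95% intervals) of other complement pathway genes that passed the filter, in 3 roles shown by colour. Intervals of Vsig4 (0.70) and Scarf1 (-1.20) lie off 0 before adjustment, and 0 of the genes passed after it.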

How the data were processed

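The authors deposited 1 table with raw counts per gene and library and, beside them, a normalized signal per gene, per the file headers; its name marks the counts as UMI-corrected. The normalized signal equals the counts times a factor per library within 0.421 and was used for that check only. Build mm10 and the tools cutadapt, HTSeq and DESeq2 are named per the submitters' processing notes, whereas versions, aligner and strand setting were not given in the sources used here. The number of value columns without a sample was 0. Counts were tested with edgeR 4.0.16 in R 4.3.3 (quasi-likelihood F test, TMM, robust, default expression filter), with Benjamini-Hochberg adjustment over the 3412 genes that passed; 7138 were not tested. Fold changes are Commd10-deficient minus control, with the SE from the F statistic. CPM use the table total and the TMM factor. Depth set a floor of 3 counts at 0.657 CPM in the deepest and 28.0 CPM in the shallowest library. DESeq2 1.42.0, limma 3.58.1 and other settings were alternatives (14 planned, 1 added after seeing the data). The permutation test used SciPy 1.17.1. Scripts were tested on simulated data. Replicates of a group differed by more than sampling noise (chi-square per degree of freedom from 1.55 to 15.3). Positions come from GENCODE M21.

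The genes, lists and naming rule were chosen with earlier results of these data known. Named were all 9 genes, up to 12 tested pathway genes with the smallest p, and for the 3 most abundant the 3 genes most like each. Some items that the rule covers are not reported here. C1ra and C1s1 were named after their values were seen.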

Additional observations from a re-analysis of the deposited data

How the results depend on the processing

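The number of called genes, 206 in all, was 514 with no filter on low counts, 357 with DESeq2, 576 with control set 1 alone, 697 with control set 2 alone and 133 with the GC and length offset, and ran from 0 to 276 when a library was left out. It was 0 without Commd10-deficient replicate 1 or 2 (edgeR, 666 and 683 genes at an unadjusted p under 0.05) and 60 without replicate 3. Of the complement genes described, 0 were called with RLE size factors, 1 each with the table totals alone, no filter, limma-voom and the offset, 2 with DESeq2, 2 with control set 1 alone, 3 with control set 2 alone, and 0 to 2 with a library left out. For the other pathway genes the count was 1 with RLE, totals alone, no filter, DESeq2, limma-voom and control set 1 alone, 3 with control set 2 alone, and 0 to 1 with a library left out (1 without control replicate 3 or 4). C1qc passed with totals alone (0.72), DESeq2 (0.64), limma-voom (0.71), control set 1 alone (0.68), control set 2 alone (0.77) and the offset (1.23), and lay between 0.63 and 0.75 with a library left out (called without control replicate 2). C3 passed with no filter (-1.54), DESeq2 (-1.42) and control set 2 alone (-1.77), and lay between -1.57 and -1.04 with a library left out (called without control replicate 1 or 2). Cfb passed with control set 1 alone (1.02; 0.51 to 0.92 with a library left out, called without control replicate 4). Cfp was at -0.50 with control set 2 alone, where it passed, and turned with control set 1 alone (0.24) and the offset (0.20). C1qa turned with control set 2 alone (0.16) and the offset (0.57; -0.081 to 0.028 with a library left out), and C1qb with the offset (0.15). C6, at 0.00, took the other sign with no filter (-0.23), DESeq2 (-0.072), limma-voom (-0.0088), control set 1 alone (-0.030) and the offset (-0.29), and lay between -0.14 and 0.11 with a library left out. Of genes named beside these, C1qbp turned with control set 1 alone (-0.089; -0.037 to 0.65 with a library left out) and Cr1l without Commd10-deficient replicate 1 (-0.079; up to 1.22 with another library left out). With no filter, all 7 described genes that pass it had lower log2 values than in the main fit (C1qc 0.49, Cfb 0.44). The cause of these changes was not tested. The difference of C1qc over C1qb ran from 1.01 to 1.20 over these 15 fits. No paired analysis was possible because the labels number no replicates, so that numbers only name libraries. Depth limits the low genes: 3 counts in the shallowest library are 28.0 CPM.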
